A study of Drosophila melanogaster with 18 samples.

Results

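Translation initiation and elongation factors are the soluble proteins that start and extend a polypeptide on the ribosome, and the genes described here are all 52 of the 17411 annotated Drosophila melanogaster genes in the count files whose FlyBase symbol starts with eIF (initiation) or eEF (elongation). In initiation, the cap-binding complex eIF4F (the cap-binding protein eIF4E, the scaffold eIF4G and the helicase eIF4A) recruits the messenger RNA, eIF3 holds the small ribosomal subunit and its partners together, and eIF2 brings the initiator tRNA, while eIF2B reloads eIF2 with GTP. In elongation, eEF1alpha delivers aminoacyl-tRNA, the eEF1B subunits beta, delta and gamma recharge it with GTP, and eEF2 moves the ribosome along the message. In flies several of these factors have a second gene that is read mainly in the testis, so the list holds both factors that every cell uses and paralogues of the male germ line.

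The messenger RNA of larvae at the L3 stage was sequenced from 3 genotypes that share the muscle driver mef2: a control in which it drives lacZ (labelled control), and 2 overexpression groups of the kinase NUAK, named NUAK548 and NUAK550 (both labelled NUAK OE). The labels do not say what 548 and 550 stand for. Each genotype was sequenced as whole larvae and as muscle carcass, the dissected body wall, which gives 6 groups of 3 libraries and 18 libraries in all. The larvae were raised at 25 °C. The labels give neither the sex of the larvae nor how many went into a library, and separate crosses are not stated, so a p-value measures only the spread between these libraries. A difference between lacZ and NUAK larvae cannot be told apart from a difference in line background.

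The libraries held 14577914 to 22341807 counted reads each. Levels are given as CPM (library-scaled counts, with factors from the trimmed mean of M values, TMM, over all 18 libraries), and errors beside means are the SD, n = 3. Differences are log2 fold changes with their standard error (SE) from edgeR's quasi-likelihood test, and a gene is called at a Benjamini-Hochberg adjusted p below 0.05 over all genes tested. Nuak, the driven gene, separated the NUAK libraries from lacZ without overlap, at 439 ± 35.5, 2964 ± 667 and 4861 ± 673 CPM in lacZ, NUAK548 and NUAK550 muscle and at 83.7 ± 24.2, 1144 ± 70.0 and 2214 ± 84.0 CPM in whole larvae. The summed level of 15 muscle markers was 60500.6 to 86998 CPM in lacZ muscle, 42616 to 121130.0 in NUAK548 muscle and 121561 to 183163 in NUAK550 muscle, against 3754 to 11768 CPM in lacZ whole larvae, so the carcass libraries carry the label's tissue. Gut markers, at 8.32 to 133 summed CPM, were scarce in the carcass, whereas fat body markers (4715 to 22661 CPM) and blood cell markers (436 to 1367 CPM) were not.

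The members divide by expression into 45 genes that were read in both preparations of the control, or were low in both, and 7 genes that were read in whole control larvae and close to 0 in control muscle. The 7 are called testis-type here: eIF3d2, eIF3f2, eIF3g2, eIF4E4, eIF4E5, eIF4E7 and eIF4H2, with at least 1 CPM in lacZ whole larvae, at most 1 CPM in lacZ muscle and a muscle level of at most 0.1 of the whole level. Their muscle level was 0.264% to 3.24% of their whole-larva level. Since these values chose them, the difference between lacZ muscle and lacZ whole larvae is a description for them. Just outside the limit stood eEF1alpha2, at 9.14% but still at 13.1 CPM in muscle, and eIF4E3, at 13.2% and 2.32 CPM. eIF4E6 was low in both preparations, at 0.868 CPM in whole larvae and 1.16 CPM in muscle.

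**Figure D1:**
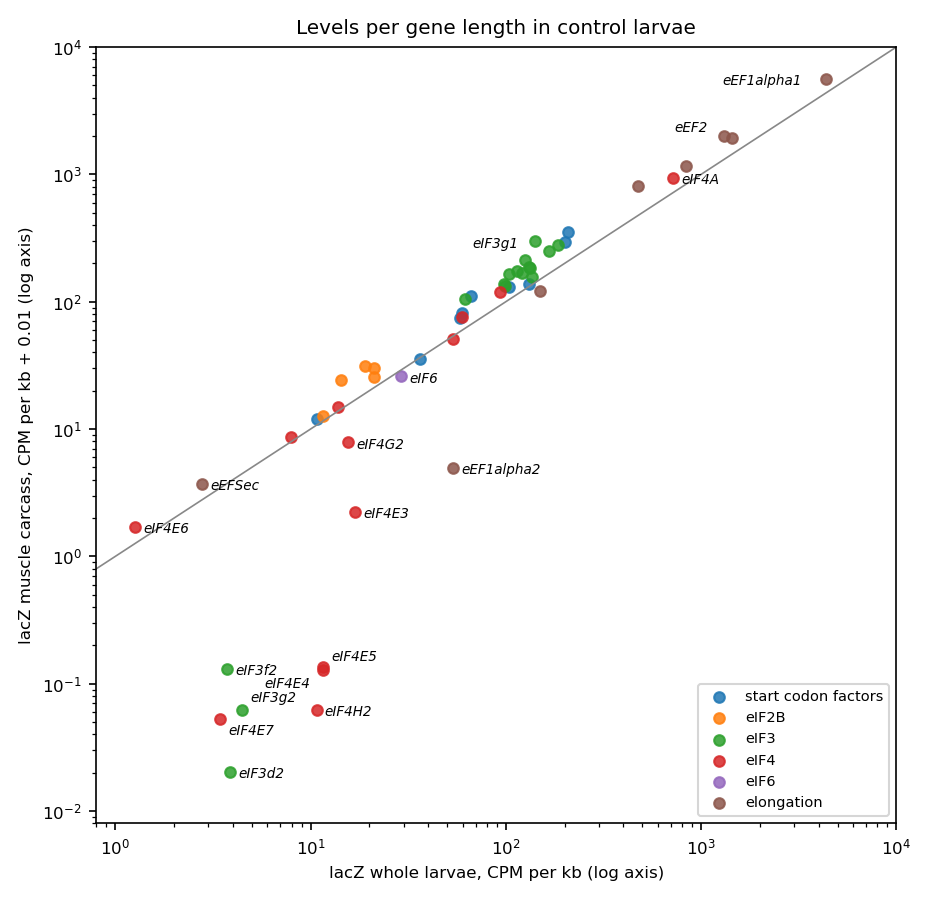
Level of each of the 52 factors in lacZ whole larvae (horizontal axis) and lacZ muscle carcass (vertical axis), in CPM per kb of gene length on log axes, mean of 3 libraries, with 0.01 added on the vertical axis and colours for the roles. The line marks equal levels, and the 7 testis-type genes lie far below it, under 1 CPM per kb in muscle.

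Per kb of gene length, the highest members in control muscle were elongation factors. eEF1alpha1 (FBgn0000556 in the files, 2R 11891135 to 11895762 in BDGP6), the carrier of aminoacyl-tRNA, reached 5589 ± 56.4 CPM per kb in lacZ muscle. The translocase eEF2 followed at 1991 ± 27.6 and eEF5, the fly's eIF5A, which helps the ribosome form difficult peptide bonds, at 1925 ± 69.5 CPM per kb, and these last levels lie within their spread of each other. The lowest elongation factor was eEFSec, which serves selenocysteine alone, at 3.69 CPM per kb.

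The highest initiation factor was the helicase eIF4A (FBgn0001942, 2L 5981764 to 5985909), at 942 CPM per kb in lacZ muscle (2336 ± 64.5 CPM). Among the factors of the initiator tRNA and the start codon, eIF1 (FBgn0035423, 3L 3223341 to 3224650), which guards the choice of start codon, was highest at 355 ± 26.1 CPM per kb. The 3 eIF2 subunits stood between 74.8 and 137 CPM per kb, and the 5 subunits of eIF2B, its exchange factor, between 12.6 and 31.5. The anti-association factor eIF6 (FBgn0034915, 2R 23849246 to 23850301), which keeps the large ribosomal subunit free, had 25.0, 25.8 and 31.1 CPM in the lacZ muscle libraries, 25.9 ± 3.15 CPM per kb. Every eIF2B subunit thus lay below every eIF2 subunit.

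The subunits of 1 complex did not share 1 level. The 13 eIF3 subunits without the testis-type paralogues spanned 2.84 times in lacZ muscle, from eIF3j at 105 CPM per kb to eIF3g1 (FBgn0029629, X 2609247 to 2610336) at 298 ± 6.93. In lacZ whole larvae the same subunits spanned 3.02 times, from eIF3j at 61.5 to eIF3b at 185 CPM per kb. Among eIF2, eIF2B, eIF3 and eEF1B, the exchange factor eEF1B was the least even in lacZ muscle. There eEF1gamma stood at 1168 ± 30.2, eEF1beta at 813 ± 30.2 and eEF1delta at 121 ± 2.81 CPM per kb, a 9.65-fold range. Of the eIF4F genes, which were not ranked with these, eIF4A stood at 942, eIF4E1 at 120 and eIF4G1 at 51.0 CPM per kb.

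**Figure D2:**
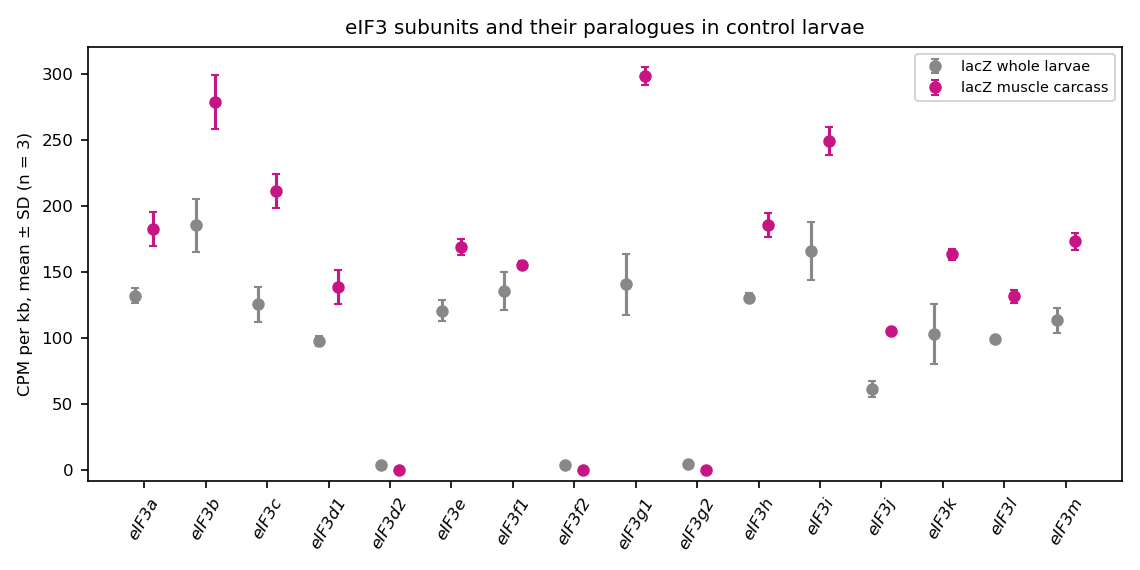
Level of each eIF3 subunit gene and of its testis-type paralogue in lacZ whole larvae (grey) and lacZ muscle carcass (magenta), in CPM per kb of gene length, mean ± SD of 3 libraries. The 13 general subunits lie between 61.5 and 298 CPM per kb, and eIF3d2, eIF3f2 and eIF3g2 lie near 0 in muscle and under 5 in whole larvae.

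In whole control larvae each testis-type gene was far below its general partner per kb. eIF3d2 stood at 3.86 ± 0.253 CPM per kb beside eIF3d1 at 97.9 ± 3.65. The pair eIF3f2 and eIF3f1 stood at 3.74 and 136 CPM per kb, and eIF3g2 and eIF3g1 at 4.45 and 141. The helicase cofactor eIF4H2 was closer to its partner, at 10.7 ± 0.860 CPM per kb against 59.7 ± 4.16 for eIF4H1. Among the cap-binding proteins, eIF4E1 stood at 93.1, eIF4E3 at 16.8, eIF4E4 at 11.6, eIF4E5 at 11.5 and eIF4E7 at 3.44 CPM per kb, and eIF4E4 and eIF4E5 did not differ beyond their spread of 1.93 and 1.76.

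In gene structure, which the choice by level did not use, the testis-type genes were mixed. They had a median of 2 exon blocks (range 1 to 4) and a median length of 1048 bases, against 4 exon blocks (1 to 17) and 1720 bases for the other 45 members, but eIF3d2 (2232 bases) and eIF4H2 (1906 bases) are longer than that median and eIF4E4 has 4 exon blocks. They are scattered over the genome, with 3 on 3R (eIF3d2, eIF3g2 and eIF4H2), 2 on 3L (eIF4E4 and eIF4E5), 1 on the X (eIF4E7) and 1 on 2R (eIF3f2). No test was made of these structures. Reads that fit both a paralogue and its partner could have been split between them, as the sources used here do not say how such reads were handled.

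The testis-type genes varied widely between the whole-larva libraries, and along the same libraries in each case. eIF4H2 (FBgn0039797, 3R 30726087 to 30728052) stood at 19.1, 19.9 and 22.3 CPM in lacZ, 28.8, 0.0445 and 0.0958 in NUAK548 and 0.0587, 0.0479 and 0.0772 in NUAK550. eIF4E4 (FBgn0035709, 3L 6664224 to 6665641) had 14.2, 10.4 and 11.3 CPM in lacZ, 14.9, 0.0890 and 0.0479 in NUAK548 and 0.0587, 0.0479 and 0.0772 in NUAK550. All 3 lacZ libraries and the first NUAK548 library were high, and the other 5 libraries were close to 0.

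The remaining testis-type genes had the same high and low libraries. eIF4E5 (FBgn0035823, 3L 7894880 to 7896009) had 13.7, 10.1 and 11.5 CPM in lacZ, 13.5, 0.133 and 0.335 in NUAK548 and 0.0587, 0 and 0.193 in NUAK550. eIF4E7 (FBgn0040368, X 1158599 to 1162389) had 6.23, 5.20 and 5.48 CPM in lacZ, 8.64, 0 and 0 in NUAK548 and 0.0587, 0.0479 and 0 in NUAK550. The cap-binding paralogues thus kept to the libraries that were high for eIF4H2. eIF3d2 (FBgn0037994, 3R 12192703 to 12195011) had 8.13, 9.24 and 8.49 CPM in lacZ, 13.0, 0.0445 and 0 in NUAK548 and 0.0587, 0.0479 and 0.0386 in NUAK550. eIF3g2 (FBgn0038796, 3R 20408265 to 20409243) had 4.70, 3.84 and 4.54 CPM in lacZ, 3.92, 0 and 0.0479 in NUAK548 and 0.352, 0.288 and 0.0386 in NUAK550. eIF3f2 (FBgn0033069, 2R 6200853 to 6201956) had 4.37, 3.79 and 3.59 CPM in lacZ, 2.69, 0 and 0 in NUAK548 and no counts in NUAK550. With a floor of 3 counts over the group, eIF3f2 was at least 80.9-fold higher in lacZ than in NUAK550 whole larvae, where the floor covers counting error only.

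Marker genes moved with these libraries. The summed level of 21 testis markers was 361 to 404 CPM in lacZ whole larvae, 502, 28.6 and 21.3 CPM in the NUAK548 libraries and 34.5 to 39.0 CPM in NUAK550, and the summed male dosage compensation RNAs roX1 and roX2 were at 166 to 195, at 184, 21.6 and 19.3, and at 22.9 to 26.8 CPM. In NUAK550 whole larvae 2 of the 21 testis markers had no counts, and 3 were over 1 CPM. In muscle the testis marker sum was 59.1 to 84.4 CPM in all 3 genotypes. It rested on few genes, as 4, 5 and 4 of the 21 markers were over 1 CPM in lacZ, NUAK548 and NUAK550. The roX sum in muscle was 504 to 568 CPM in lacZ, 343, 266 and 137 in NUAK548 and 61.7 to 67.0 in NUAK550. The part that the make-up of the larvae in each library has in these levels was not tested, and in bulk RNA fewer cells of a type and less RNA per cell cannot be told apart.

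**Figure D3:**
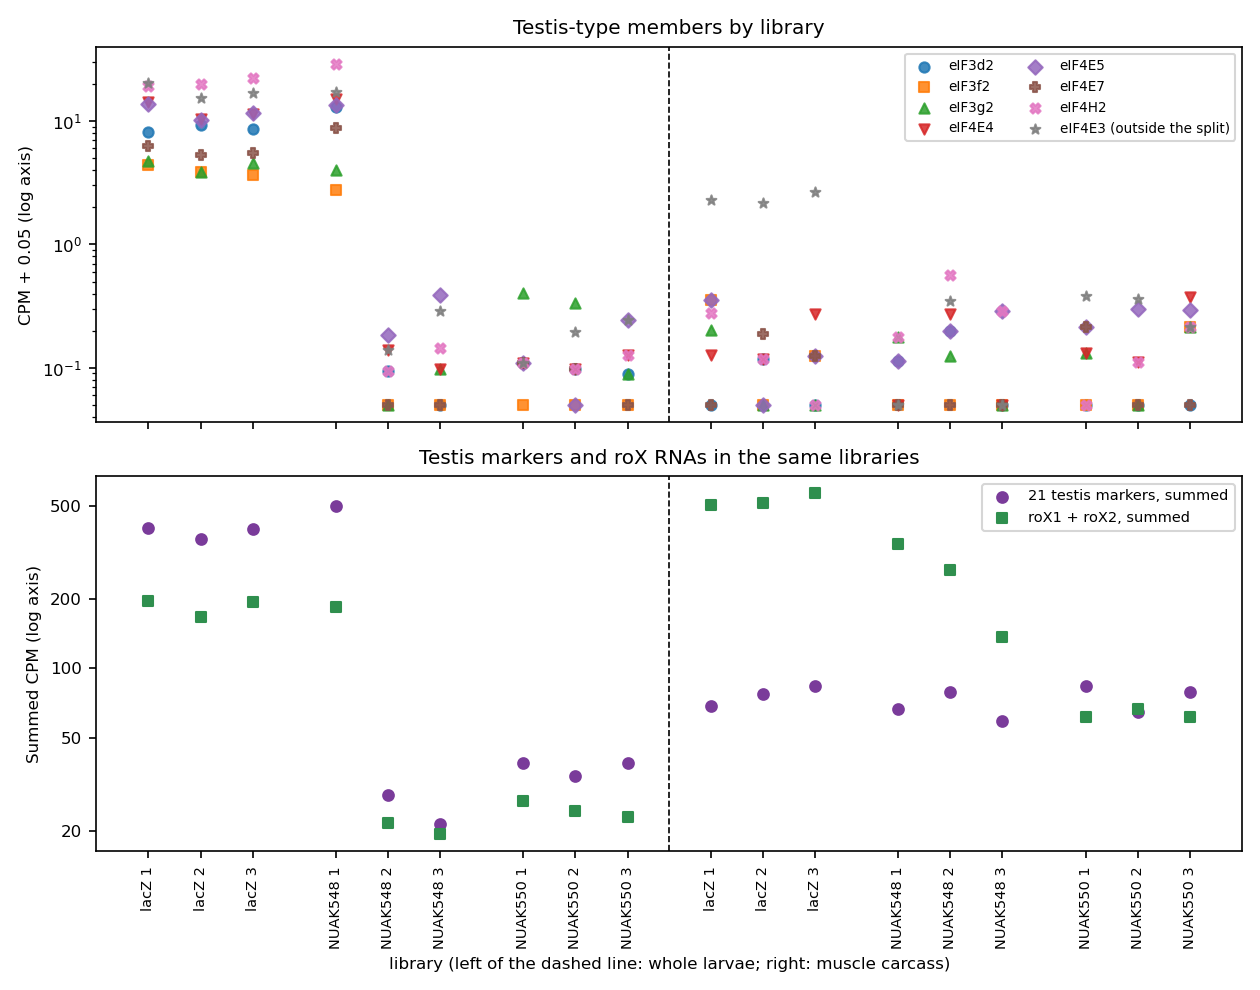
Upper panel, level of the 7 testis-type genes and of eIF4E3 in each of the 18 libraries, in CPM with 0.05 added, on a log axis. Lower panel, summed CPM of 21 testis markers and of roX1 and roX2 in the same libraries, on a log axis, with whole larvae left of the dashed line and muscle right of it. In whole larvae the lacZ libraries and the first NUAK548 library are high in both panels.

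In whole larvae no factor was called between genotypes by edgeR, in a background of 12255 genes of which few were called. In NUAK548 against lacZ 0.155% were called (0.0571% higher and 0.0979% lower), in NUAK550 against lacZ 0.808% (0.596% and 0.212%), in the mean of both against lacZ 0.424% (0.204% and 0.220%) and in NUAK550 against NUAK548 0.139% (0.131% and 0.00816%). At an unadjusted p below 0.05 the counts were 3, 20, 11 and 17 of 52 factors, beside 1292, 4237, 3550 and 2625 of the 12255 genes. DESeq2 gave an adjusted p to 44 factors, none of them testis-type. It called 2, 12, 4 and 9 of the 44, beside 450 of 11072, 2386 of 11994, 1227 of 11379 and 996 of 11994 genes. Its 12 in NUAK550 were 10 higher (eEF1alpha1, eEF1beta, eEF1gamma, eEF2, eIF2A, eIF3b, eIF3c, eIF3d1, eIF3l and eIF4A) and 2 lower (eIF2Bdelta and eIF4E6), and limma on the deposited normalized values called 7 of 52 lower there, 5 of them testis-type with eIF2Bdelta and eIF4E3, beside 1687 of 11765 genes called lower in all. All 7 testis-type genes had negative log2 fold changes in NUAK550 whole larvae, from -9.42 to -4.19, with adjusted p from 0.095 to 0.15 by edgeR. Their lacZ whole-larva level was part of how they were chosen. These values and the limma calls of testis-type genes are thus a description and no support.

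In NUAK548 and in the mean of both NUAK groups, the edgeR calls of the testis-type genes in whole larvae depended on the first NUAK548 library. Without it, edgeR called 8 factors lower in NUAK548 than in lacZ whole larvae, the 7 testis-type genes and eIF4E3, and 9 lower in the mean of both NUAK groups, with eIF4E6 in addition, where 2271 and 2721 of 12370 genes were called in all. The testis-type genes were chosen partly by their lacZ whole-larva level, so these counts describe them and are no support. eEF1alpha1 had 10709, 11195 and 10352 CPM in lacZ whole larvae, 9449, 12914 and 11176 in NUAK548 and 15024, 14082 and 14120.1 in NUAK550. Its NUAK550 libraries lay above both other groups, without a call by edgeR (log2 fold change against lacZ 0.49 ± 0.18 SE, adjusted p = 0.10). The summed muscle markers moved in the same direction, from 3754 to 11768 CPM in lacZ to 27169 to 32314 CPM in NUAK550 whole larvae, and their part in this was not tested.

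Between control muscle and control whole larvae, the median of the factors lay above the median of all genes, while single factors differed in both directions. With TMM scaling 29 of 52 were called higher and 10 lower in lacZ muscle, in a background of 22.4% and 37.1% of 12429 genes (59.5% in either direction), and the median log2 fold change was 0.379 for the factors against -0.205 for all genes. The 10 include the 7 testis-type genes, which were chosen by these same levels, so their calls were fixed in advance. Of the other 45 factors 29 were called higher and 3 lower (64.4% and 6.67%), with a median of 0.411. When libraries were scaled by total counts only, 4 of the 52 were called higher and 20 lower, the 7 testis-type genes again included, beside 1308 and 7083 of the 12429 genes. The medians of the factors and of all genes were then -0.117 and -0.70. The factors' median lay 0.584 and 0.583 above that of all genes under the 2 scalings. A change of scaling shifts all genes by about the same amount, so this distance is nearly fixed by construction and its stability tests nothing. The counts of higher and lower calls did depend on the scaling. The factors held 3.09 ± 0.0440% of all counts in lacZ whole larvae and 2.95 ± 0.0625% in lacZ muscle.

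Among the factors called higher in lacZ muscle under both scalings were eIF3c, eIF3g1, eIF3j and eIF5. eIF3g1, an RNA-binding subunit of eIF3, had 171, 133 and 128 CPM in lacZ whole larvae and 312.9, 307.0 and 298.7 CPM in lacZ muscle, with no overlap (log2 fold change 1.08 ± 0.12 SE, edgeR adjusted p = 8.06e-06). eIF1 had 167, 129 and 127 CPM in whole larvae and 244, 258 and 223 CPM in muscle (0.78 ± 0.13 SE, adjusted p = 0.00018), a call that was lost under total-count scaling.

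The factors called lower in lacZ muscle under both scalings, beside the testis-type genes, were eEF1alpha2, eIF4G2 and eEF1delta. eEF1alpha2 (FBgn0000557, 3R 31738468 to 31743306), the second gene for the carrier of aminoacyl-tRNA, had 118, 139 and 173 CPM in whole larvae and 15.6, 13.9 and 9.76 CPM in muscle (log2 fold change -3.45 ± 0.51 SE, adjusted p = 7.86e-05). eIF4G2 (FBgn0260634, 3R 23808285 to 23819237), a scaffold paralogue that fly spermatocytes need, had 75.3, 158 and 182 CPM in whole larvae and 73.3, 63.0 and 73.7 CPM in muscle (-0.99 ± 0.27 SE, adjusted p = 0.0075). The first whole-larva library thus lay just above the muscle libraries, and the others far above. For eIF4G2, 7.20% of the exon length overlaps CG33111 on the same strand. Nervous system markers summed to 196 to 315 CPM in lacZ whole larvae and to 67.5, 57.3 and 79.4 CPM in the lacZ muscle libraries. The lacZ muscle library with the most of them had the least eEF1alpha2, at 9.76 CPM. In NUAK550 muscle the library with the most of them, 145 CPM against 61.7 and 79.0, also had the most eEF1alpha2, at 46.8 CPM against 8.21 and 18.7. The part of nervous system RNA in the level of eEF1alpha2 was not tested.

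In muscle, 45 of the 52 factors passed the filter on low counts, and the 7 left out were the testis-type genes. NUAK548 and NUAK550 were each compared with the same 3 lacZ libraries, so their values below are not independent of each other. In NUAK550 muscle 8 factors rose and 2 fell (17.8% and 4.44% of the 45) in a background of 6.45% and 6.11% of 9821 genes (12.6% in either direction). Of the factors that fell, eIF4E3 is near 0 in both NUAK groups and passed the filter through lacZ. The median log2 fold change was 0.215 against 0.029 for all genes, and 38 of 45 were positive. In NUAK548 muscle 1 factor rose and 1 fell (2.22% each) in a background of 2.60% and 2.96% (5.56% in all), with medians of 0.142 and 0.009. For the mean of both NUAK groups 4 rose and 1 fell (8.89% and 2.22%) in a background of 4.85% and 5.75% (10.6% in all), with medians of 0.163 and 0.013.

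The NUAK550 counts depend on the scaling and on single libraries. Scaled by total counts only, 2 of 45 factors rose (eEF1alpha1 and eEF1gamma) and 3 fell (eIF2Bdelta, eIF4E3 and eIF5). Beside them 381 and 855 of 9821 genes rose and fell, so both shares lay near those of all genes. The median of all genes was then -0.119. The factors' median lay 0.182 above it, against 0.186 with TMM, a distance that a change of scaling leaves nearly fixed by construction. With any 1 of the 6 libraries left out, 1 to 4 factors were called. The calls over all genes fell as well, from 1233 to between 403 and 987. The summed muscle markers were also higher in NUAK550 muscle than in the other muscle groups. The roX sum was lower there, at 61.7 to 67.0 CPM against 504 to 568 CPM in lacZ muscle. The part of the tissue and of the sex of the larvae in these differences was not tested.

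**Figure D4:**
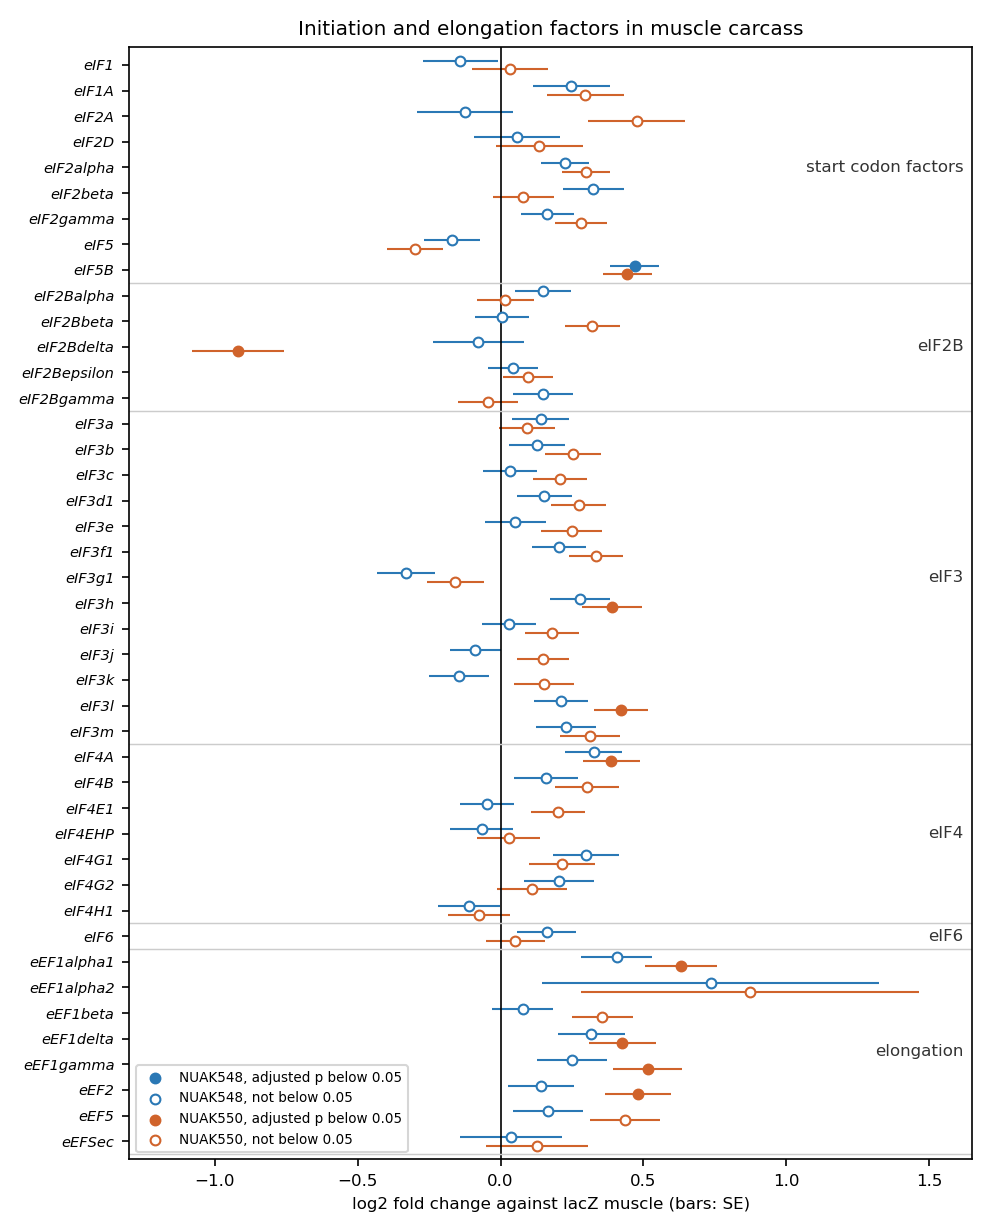
Log2 fold change of 43 factors in NUAK548 (blue) and NUAK550 (orange) muscle against lacZ muscle, with bars for SE, by role; filled points have an edgeR adjusted p below 0.05, and both comparisons share the lacZ libraries. eIF4E3, off the scale at -4.47 and -3.08, and eIF4E6, at -1.42 and -1.77, are left out, and all elongation factors lie right of 0.

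Elongation factors had the highest values as a group in NUAK550 muscle. All 8 log2 fold changes were positive, with a median of 0.459, and 4 rose; with total-count scaling 7 of 8 were positive, with a median of 0.312. In NUAK548 muscle all 8 were positive as well, with a median of 0.208, and none was called by edgeR, while DESeq2 and the total-count scaling each called eEF1alpha1 higher.

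eEF1alpha1 stood at 13926, 13734 and 13656 CPM in lacZ muscle, 17286, 21062 and 16739 in NUAK548 and 23043, 20003 and 21866 in NUAK550. All NUAK libraries lay above all lacZ libraries, and the NUAK groups overlapped each other. It rose 1.55-fold in NUAK550 (log2 fold change 0.63 ± 0.13 SE, adjusted p = 0.017) and in the mean of both groups (0.52 ± 0.11 SE, adjusted p = 0.023), and stood at 0.41 ± 0.13 in NUAK548 (adjusted p = 0.10). With 1 library left out the call was kept in 2 of 6 fits for NUAK550 and 4 of 9 for the mean, and both calls were lost without the filter, with limma and with replicate numbers as a block. This gene alone held 1.17 ± 0.0194% of all counts in lacZ muscle, 1.56 ± 0.116% in NUAK548 and 1.64 ± 0.0293% in NUAK550. These shares divide by the library total, as the total-count scaling does, and are no separate support.

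The exchange factor subunits and the translocase followed. eEF1gamma (FBgn0029176, 3R 29220172 to 29222109) had 2011, 2008 and 1921 CPM in lacZ, 2175, 2744 and 2191 in NUAK548 and 3001, 2624 and 2981 in NUAK550. eEF1delta (FBgn0032198, 2L 10232507 to 10234450) had 113, 115 and 109 CPM, 143, 128 and 151 CPM, and 139, 169.6 and 149.6 CPM in the same order. eEF2 (FBgn0000559, 2L 21677913 to 21682164) had 5989.7, 6109 and 6153 CPM, 6292, 7587 and 6385 CPM, and 8900.2, 8073 and 8862 CPM. For each of the 3 genes all NUAK libraries lay above all lacZ libraries, and for eEF2 the NUAK550 libraries also lay above those of NUAK548. In NUAK550 the log2 fold changes were 0.51 ± 0.12 SE for eEF1gamma (adjusted p = 0.029), 0.43 ± 0.12 for eEF1delta (adjusted p = 0.049) and 0.48 ± 0.11 for eEF2 (adjusted p = 0.030). Of these, eEF1delta and eEF2 lost the call with any 1 of the 6 libraries left out and under total-count scaling, and eEF1gamma kept it in 1 of 6. The adjusted p of eEF5 was 0.052 (0.44 ± 0.12) and that of eEF1beta 0.064 (0.36 ± 0.11).

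**Figure D5:**
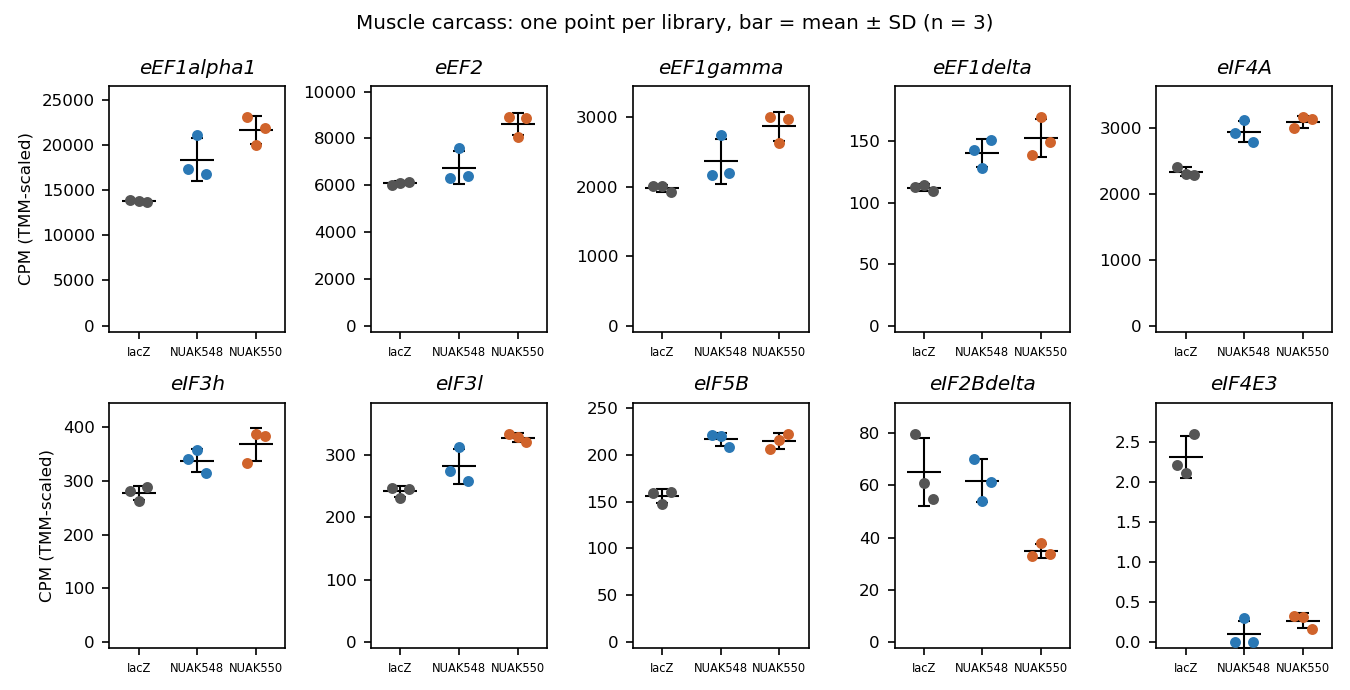
Level of the 10 factors called in NUAK550 muscle, in CPM on linear axes, with a point for each of the 3 libraries of lacZ, NUAK548 and NUAK550 muscle carcass and bars for mean ± SD. The NUAK550 libraries lie above the lacZ libraries for 8 genes and below them for eIF2Bdelta and eIF4E3.

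Among the factors of the initiator tRNA and the start codon, 1 of 9 was called, and it was the same gene in both NUAK groups. eIF5B (FBgn0026259, 3L 3428658 to 3460977), the GTPase that joins the large ribosomal subunit at the end of initiation, had 159, 147 and 161 CPM in lacZ muscle, 221, 220.3 and 208 in NUAK548 and 206, 215 and 222 in NUAK550. The NUAK libraries did not overlap with lacZ, and the NUAK groups did not differ beyond their spread (-0.02 ± 0.09 SE). It rose by 0.47 ± 0.09 in NUAK548 (adjusted p = 0.020), 0.44 ± 0.09 in NUAK550 (adjusted p = 0.015) and 0.46 ± 0.08 in the mean, or 1.37-fold (adjusted p = 0.0083). The mean kept its call with each of the 9 muscle libraries left out in turn, but not with total-count scaling, and the single groups kept theirs in 1 and 2 of 6. For eIF5, the GTPase-activating partner of eIF2, values pointed the other way, with 341, 361 and 355 CPM in lacZ, 303, 323 and 317 in NUAK548 and 272, 302 and 295 in NUAK550 (-0.30 ± 0.10 SE in NUAK550, edgeR adjusted p = 0.081, while DESeq2, limma and total-count scaling called it lower). eIF1 stood at 195, 227 and 239.7 CPM in NUAK548 and 223, 268 and 261 CPM in NUAK550 muscle, and both groups overlapped with lacZ.

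In whole larvae eIF5B showed no such difference. It had 136, 166 and 177 CPM in lacZ, 152, 152 and 166 in NUAK548 and 153, 149.6 and 158 in NUAK550, and the groups overlapped. The difference between its NUAK effect in muscle and in whole larvae was 0.51 ± 0.12 SE (edgeR adjusted p = 0.045), the only call among the 52 factors in a background of 2.04% of 12429 genes (1.12% higher and 0.925% lower). That call was kept in 2 of 18 leave-one-out fits and was absent under total-count scaling, without the filter and with replicate numbers as a block.

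Of the eIF2B subunits, 1 of 5 was called, and in NUAK550 alone. eIF2Bdelta (FBgn0034858, 2R 23386521 to 23389052), a regulatory subunit that senses phosphorylated eIF2, had 79.7, 60.9 and 54.7 CPM in lacZ muscle, 70.2, 53.9 and 61.4 in NUAK548 and 33.0, 37.8 and 33.6 in NUAK550. The NUAK550 libraries lay below all others, while NUAK548 and lacZ overlapped. It fell by 0.92 ± 0.16 SE on the log2 scale in NUAK550, or 1.89-fold (adjusted p = 0.0098), a call kept with each of the 6 libraries left out and under all 6 other settings tried, total-count scaling and replicate numbers as a block included. The difference between NUAK550 and NUAK548 was itself called (-0.84 ± 0.16 SE, adjusted p = 0.047; background 1.45% of 9821 genes, 0.937% higher and 0.509% lower), though in 1 of 6 leave-one-out fits only. In whole larvae eIF2Bdelta had 42.8, 43.3 and 51.3 CPM in lacZ, 47.7, 52.7 and 55.1 in NUAK548 and 35.3, 32.8 and 36.5 in NUAK550, again lowest in NUAK550 without overlap (-0.32 ± 0.09 SE against lacZ, adjusted p = 0.095). Of its exon length, 2.02% overlaps Mtmr6 on the other strand.

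The other eIF2B subunits had log2 fold changes from -0.04 to 0.32 in NUAK550 muscle, without a call. eIF2Balpha (FBgn0039726, 3R 29934582 to 29935888), the highest eIF2B subunit per kb in lacZ muscle, had 31.5, 33.2 and 30.3 CPM in lacZ, 33.2, 37.7 and 34.9 in NUAK548 and 34.4, 34.0 and 29.1 in NUAK550 muscle, and the 3 groups overlapped. For eIF2Bbeta the value was 0.32 ± 0.10 SE (adjusted p = 0.062), opposite in sign to eIF2Bdelta.

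Of the 13 eIF3 subunits tested in muscle, 2 rose in NUAK550 and 12 had positive log2 fold changes, with a median of 0.249 (11 positive and a median of 0.098 with total-count scaling, where none was called). eIF3h (FBgn0022023, 2L 5051193 to 5053094) had 281, 262 and 289 CPM in lacZ, 341, 358 and 316 in NUAK548 and 333.3, 388 and 383.6 in NUAK550. eIF3l (FBgn0036258, 3L 12143446 to 12146097) had 247, 231 and 246 CPM, 274, 312 and 257 CPM, and 334, 328 and 320.2 CPM in the same order. Both are subunits outside the core that budding yeast keeps, and for both all NUAK libraries lay above all lacZ libraries. In NUAK550 they rose by 0.39 ± 0.10 SE (adjusted p = 0.044) and 0.42 ± 0.09 SE (adjusted p = 0.025), calls that were lost with any 1 library left out. For eIF3h, 16.8% of the exon length overlaps senju on the other strand, and the counting is not stated to use strand.

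eIF3g1 was the eIF3 subunit with a negative value in NUAK550 muscle, and in NUAK548 muscle eIF3j (-0.09) and eIF3k (-0.15) were negative as well, without a call. eIF3g1 had 312.9, 307.0 and 298.7 CPM in lacZ muscle, 226, 249 and 258 in NUAK548 and 262, 284 and 288 in NUAK550, so that both NUAK groups lay below lacZ (-0.33 ± 0.10 SE in NUAK548, adjusted p = 0.098, and -0.16 ± 0.10 in NUAK550, adjusted p = 0.34). It was not called by edgeR in either group, and DESeq2 called it lower in NUAK548.

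Of the 9 eIF4 genes tested in muscle, 1 rose and 1 fell in NUAK550. The helicase eIF4A had 2409, 2307 and 2290.5 CPM in lacZ, 2928, 3114 and 2788 in NUAK548 and 2991, 3159.8 and 3133 in NUAK550. All NUAK libraries lay above lacZ, and the NUAK groups overlapped. It rose by 0.39 ± 0.10 SE in NUAK550 (adjusted p = 0.040) and by 0.36 ± 0.09 in the mean (adjusted p = 0.037), and stood at 0.33 ± 0.10 in NUAK548 (adjusted p = 0.10). The call in NUAK550 was lost with any 1 library left out and under total-count scaling. The general cap-binding protein eIF4E1, the scaffold eIF4G1, eIF4B, eIF4H1 and the repressive cap-binding protein eIF4EHP had values from -0.08 to 0.30 in NUAK550 muscle, without a call.

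The factor called lower was eIF4E3 (FBgn0265089, 3L 8229224 to 8230568), a cap-binding paralogue that in the fly serves spermatogenesis. It had 2.22, 2.12 and 2.61 CPM in lacZ muscle, 0, 0.297 and 0 in NUAK548 and 0.329, 0.311 and 0.162 in NUAK550. All lacZ libraries lay above all NUAK libraries at a level low throughout, with 95, 4 and 11 counts per group in all, and the gene passed the filter through the lacZ group where it is high, so its call supports nothing about the factors as a group. The fitted log2 fold change was -4.47 ± 0.81 SE in NUAK548 (edgeR adjusted p = 0.019) and -3.08 ± 0.70 in NUAK550 (adjusted p = 0.026), values that rest on these few counts. With 1 library left out the calls were kept in 1 of 6 and 0 of 6 fits, and the NUAK548 value ran from -8.01 to -3.86; for the mean of both groups the call was kept in 9 of 9. In whole larvae eIF4E3 had 20.2, 15.3 and 16.9 CPM in lacZ, 17.2, 0.0890 and 0.240 in NUAK548 and 0.0587, 0.144 and 0.193 in NUAK550, the same libraries high and low as for the testis-type genes. In muscle the roX sum was likewise highest in lacZ, and its part in the level of eIF4E3 was not tested. eIF4E6 (FBgn0039622, 3R 29026439 to 29027174) was also highest in lacZ muscle, at 1.76, 0.889 and 0.820 CPM against 0.574, 0.371 and 0.321 in NUAK548 and 0.0823, 0.560 and 0.325 in NUAK550, without a call by edgeR, while DESeq2 called it lower in the mean of both groups. With 47, 18 and 14 counts per group in all, it too passed the edgeR filter through lacZ. Its values support nothing about the factors as a group.

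eIF6 had 29.5, 31.6 and 30.9 CPM in NUAK548 and 27.2, 29.9 and 28.8 CPM in NUAK550 muscle and overlapped with lacZ (0.16 ± 0.10 SE and 0.05 ± 0.10). Over all 52 genes the factors held 3.54 ± 0.160% of the counts in NUAK548 muscle and 3.70 ± 0.0842% in NUAK550 muscle, against 2.95 ± 0.0625% in lacZ muscle, and both NUAK groups lay above lacZ without overlap. Most of this difference lay in the 8 elongation factors, which held 2.56 ± 0.143%, 2.76 ± 0.0189% and 2.07 ± 0.0311% in the same order. The single gene eEF1alpha1, at 1.56 ± 0.116%, 1.64 ± 0.0293% and 1.17 ± 0.0194%, made up most of it.

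Beside the factors, a list of 24 regulators and partners of translation was read, of which 23 were found by symbol and 22 were tested in muscle. In NUAK548 muscle 1 of 22 rose, beside 2.60% of all genes, and in NUAK550 5 of 22 rose, beside 6.45% of all genes, with none falling by edgeR. Thor, the fly 4E-BP, which binds eIF4E1 and blocks cap-dependent initiation, had 155, 199.7 and 305 CPM in lacZ muscle, 782, 1188 and 739 in NUAK548 and 895, 540.3 and 787 in NUAK550. All NUAK libraries lay above all lacZ libraries, and it rose 4.07-fold in NUAK548 (log2 fold change 2.03 ± 0.30 SE, adjusted p = 0.0088) and 3.32-fold in NUAK550 (1.73 ± 0.30 SE, adjusted p = 0.0097). In whole larvae Thor was not called (-0.16 ± 0.30 and 0.58 ± 0.30 SE), and the difference between its muscle and whole-larva effects was 1.74 ± 0.39 SE (adjusted p = 0.035).

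The other regulators that rose in NUAK550 muscle did so by 0.49 to 0.54 on the log2 scale. They were pix, the ABCE1 ATPase that recycles ribosomes (0.53 ± 0.10 SE, adjusted p = 0.012), the ribosomal protein RpS6 (0.54 ± 0.11, adjusted p = 0.015), crc, the fly ATF4 (0.51 ± 0.12, adjusted p = 0.032), and Gcn2, a kinase of eIF2alpha (0.49 ± 0.13, adjusted p = 0.043). With total-count scaling Thor and RpS6 were still called higher in NUAK550, pix, crc and Gcn2 were not, and Pdcd4, an inhibitor of eIF4A, was called lower (-0.69 ± 0.14 SE, adjusted p = 0.016). For eIF2alpha itself the values were 0.23 ± 0.08 SE in NUAK548 (adjusted p = 0.16) and 0.30 ± 0.08 in NUAK550 (adjusted p = 0.051), without a call by edgeR, while DESeq2 called it higher in NUAK550 and in the mean of both groups.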

How the data were processed

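The submitters' processing notes name Trimmomatic 0.36, STAR 2.5.2b, featureCounts (Subread 1.5.2), DESeq2 and the build BDGP6; the sources used here give no strand setting, annotation release or read layout. The deposited files hold raw counts per gene for each of the 18 libraries. A deposited normalized signal table for each preparation holds values that equal the counts divided by 1 factor per library (relative spread at most 4.97e-10) for 9402 genes in muscle and 11765 in whole larvae. Gene symbols came from the reference annotation, where 17137 of 17411 identifiers matched by identifier, 223 by exon position and 51 (0.00289% of counts) not at all. Of the 52 members, 50 matched by identifier and eEF1alpha1 and eEF5 by position. Coordinates and gene lengths are those of the deposited files.

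The counts were tested with edgeR 4.0.16 in R 4.3.3 (filterByExpr, TMM, quasi-likelihood F test, two-sided), in 1 model per preparation (9 libraries, 6 residual degrees of freedom) and 1 of all 18 libraries (12 residual degrees of freedom) for the comparisons across preparations. SE was derived from the log2 fold change and F. Tests used 9821 genes in muscle, 12255 in whole larvae and 12429 over both. Alternatives were DESeq2 1.42.0, RLE factors, no filter, limma 3.58.1 on log2 (deposited normalized signal + 1), replicate numbers as a block, each library left out in turn and, chosen after seeing the data, scaling by total counts only. The edgeR script was tested on simulated data. With 3 libraries per group, values are printed per library for factors called in muscle, for all testis-type genes, for the highest member per length of each role, and for the 4 other factors that differed most between the lacZ preparations; others named were chosen after their values were seen. The members and lists were chosen with earlier results of these data known.

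Replicates differed beyond sampling noise in every group (chi-square per degree of freedom at least 31.8). Same-numbered libraries deviated together with correlations from -0.404 to 0.412, so the numbers were not used as pairs. The exception is lacZ and NUAK548 whole larvae (0.14, 0.412 and 0.38), where the block called 0 members, as did the fit without it. Protein and promoter sequences were not used here.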

Additional observations from a re-analysis of the deposited data

Results flagged for a closer look

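For eIF5B the NUAK effect differed between muscle and whole larvae by 0.51 ± 0.12 SE on the log2 scale (edgeR adjusted p = 0.045), higher in muscle, where all 6 NUAK libraries lay above all lacZ libraries. For eIF2Bdelta the NUAK550 and NUAK548 muscle groups differed by -0.84 ± 0.16 SE (edgeR adjusted p = 0.047), with all 3 NUAK550 libraries below all 3 NUAK548 libraries.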

How the results depend on the processing

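Sign changes were read for the factors that edgeR with TMM called between genotypes or in the difference of effects. Between the lacZ preparations they were read for eIF1, eIF3g1, eIF4G2 and eEF1alpha2 only. None of these changed sign under the alternatives tried. Of all 52 factors, 38 were positive between the lacZ preparations with TMM and 17 with total counts alone. Some of the 29 called higher there thus changed sign. With total counts alone (chosen after seeing the data) the factors' median log2 fold change did change sign between the lacZ preparations (0.379 to -0.117) and in NUAK550 against NUAK548 (0.118 to -0.036 in muscle, 0.056 to -0.151 in whole larvae, where limma gave -0.042), and eIF3f1, called higher in lacZ muscle by DESeq2, was called lower. In NUAK548, NUAK550 and their mean against lacZ muscle and in NUAK550 against NUAK548 muscle, 2, 10, 5 and 1 factors were called, beside 546, 1233, 1041 and 142 genes in all. DESeq2 called 5, 19, 18 and 3 (beside 1090, 1795, 1614 and 853 genes in all). Replicate numbers as a block called 0, 1, 2 and 0 (beside 222, 572, 520 and 26 genes). For NUAK550 and the mean, total counts gave 5 and 2 factors (beside 1236 and 934 genes) and no filter gave 3 and 2 (beside 901 and 800 genes). In whole larvae, where edgeR called 0 throughout, DESeq2 called 2, 12, 4 and 9 factors in the same 4 comparisons, and limma called 7 in NUAK550. Between the lacZ preparations total counts gave 24 factors in place of 39 (and 8391 genes in place of 7401). For the difference between the muscle and whole-larva effects DESeq2 called 4 factors in place of 1 (and 807 genes in place of 254). Total counts, no filter and the replicate block each called 0 factors there (beside 292, 176 and 67 genes). With 1 library left out, the counts of factors ran from 0 to 2, 1 to 4, 2 to 5 and 0 to 1 in muscle, from 0 to 8, 0 to 0, 0 to 9 and 0 to 0 in whole larvae, from 33 to 42 between the lacZ preparations and from 0 to 6 for the difference of effects. All genes called ran from 174 to 398, 403 to 987, 410 to 978 and 27 to 174 in muscle. In whole larvae they ran from 4 to 2271, 12 to 54, 3 to 2721 and 1 to 11. Between the lacZ preparations they ran from 6046 to 7380, and for the difference of effects from 118 to 1858. The counts of 8, 9 and 6 factors, with 2271, 2721 and 1858 genes, arose without the first NUAK548 whole-larva library. The cause of these changes was not tested. Low counts limit the testis-type genes, eIF4E3 and eIF4E6 in muscle, where a group held 95 counts or fewer of each.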
